A study of Homo sapiens with 6 samples.

Results

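The Polycomb genes of OVCAR3 cells, a line grown from a human ovarian carcinoma, were compared between cells given an empty vector and cells given a vector meant for overexpression of DAB2IP. The set held 34 genes of the 27104 in the deposited tables. They were chosen by gene name as subunits of the Polycomb repressive complexes PRC1 and PRC2, with the enzymes that remove the methyl mark of PRC2. No measured value entered this rule, but earlier results of these data were known when the set was chosen. Sequencing of poly-A RNA gave 3 empty vector libraries and 3 with the label DAB2IP O/E (overexpression), all from cells at passages 20 to 25. The labels give neither the promoter of the vector nor the time after transfection, and one extraction note names adipocytes in place of OVCAR3. They state that transfections were in triplicate but not how the replicates were kept apart, so p-values rest on the spread among these libraries only, and that spread may be technical.

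The targeted gene went against the labels. DAB2IP, which lowers Ras activity and is lost in several tumour types, was at 7.49, 7.76 and 8.01 FPKM (fragments per kilobase of exon, scaled to sequencing depth) with empty vector. In the 3 DAB2IP O/E libraries, called O/E-labelled from here on, it was at 5.74, 5.02 and 5.73 FPKM, so the groups did not overlap and the labelled overexpression carried the lower level. Its log2 change was −0.43, with a limma p of 0.00548 after Benjamini-Hochberg adjustment over all genes tested, as for every limma adjusted p that follows. Were the labels exchanged, every direction below would turn, and this was not tested. Every direction below is that of the O/E-labelled libraries against empty vector.

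Polycomb complexes keep developmental genes silent by marking histones. PRC2 methylates histone H3 at the lysine called H3K27, and PRC1 attaches ubiquitin to histone H2A. Canonical PRC1 binds the methylated lysine through a CBX protein, whereas variant PRC1 carries RYBP or YAF2 and does not need that mark for its recruitment. In many tumours, ovarian carcinoma among them, the catalytic PRC2 subunit EZH2 is abundant, and in prostate cancer EZH2 has been described as a repressor of DAB2IP itself. EZH2 is a gene of proliferating cells regulated by E2F factors, while its paralogue EZH1 is typical of cells that divide little.

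Whole reads recovered from the FPKM numbered 20445867 to 35434533 per library. Of 7 ovarian epithelial markers tested, PAX8, EPCAM and MUC16 did not pass, KRT8 and KRT18 rose and WT1 and MECOM fell, with summed levels of 625 to 670 FPKM with empty vector and 881 to 903 FPKM in the O/E-labelled libraries, and the part of this shift in the Polycomb values was not tested. Adipocyte markers were low, with 3 of 9 not listed and 3 of the other 6 under a mean of 0.1 FPKM over the libraries. None of the 6 reached a mean of 1 FPKM, and the highest was CFD at 0.969 FPKM. Their summed level was 1.75 to 2.03 FPKM with empty vector and 1.254 to 2.13 FPKM in the O/E-labelled libraries. Fibroblast, leukocyte and endothelial markers were also low, with summed levels of at most 2.49, 0.7205 and 0.886 FPKM in any library. Of 14761 genes tested, 18.5% passed an adjusted p under 0.05 (limma on log2(FPKM + 1), Benjamini-Hochberg), 9.29% higher and 9.17% lower.

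All 34 Polycomb genes were expressed and all were tested. The highest mean levels over the 6 libraries were those of RBBP4 and RBBP7 at 23.4 and 23.2 FPKM, and the lowest was that of YAF2 at 1.69 FPKM. Of the 34, 5 fell, 1 rose and 28 did not pass the threshold. The share that passed, 17.6%, was close to the 18.5% of all genes. By this fit, Polycomb genes as a whole did not pass more often than other genes. The 5 that fell were PCGF5, AEBP2, PHF19, SUZ12 and MTF2, and the gene that rose was PHC2. Groups of 3 libraries did not overlap for 12 genes on the lower side and 7 on the higher side, 35.3% and 20.6% of the set against 20.9% and 19.5% of all genes tested. Together that was 55.9% against 40.4%. The log2 changes of the 34 genes ran from −0.37 for PCGF5 to 0.24 for PHC2, and the median size of change among all genes that passed was 0.33. The added 1 FPKM shrinks the changes of genes at low levels more than those of genes at high levels. By limma-voom, run on recovered reads, the changes ran from −0.52 for PHF19 to 0.29 for EZH1. In the authors' deposited table, where 9.73% of 20272 genes were higher with DAB2IP O/E and 9.26% lower, 9 of the 34 passed: the same 6 with EZH1, EZH2 and PHC3. Setting the library medians equal gave 7.89% of all genes higher and 11.4% lower and shifted the median gene by −0.025 on the log2 scale; the 6 calls among the 34 stood, and EZH2 and RBBP7 joined those that fell.

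**Figure D1:**
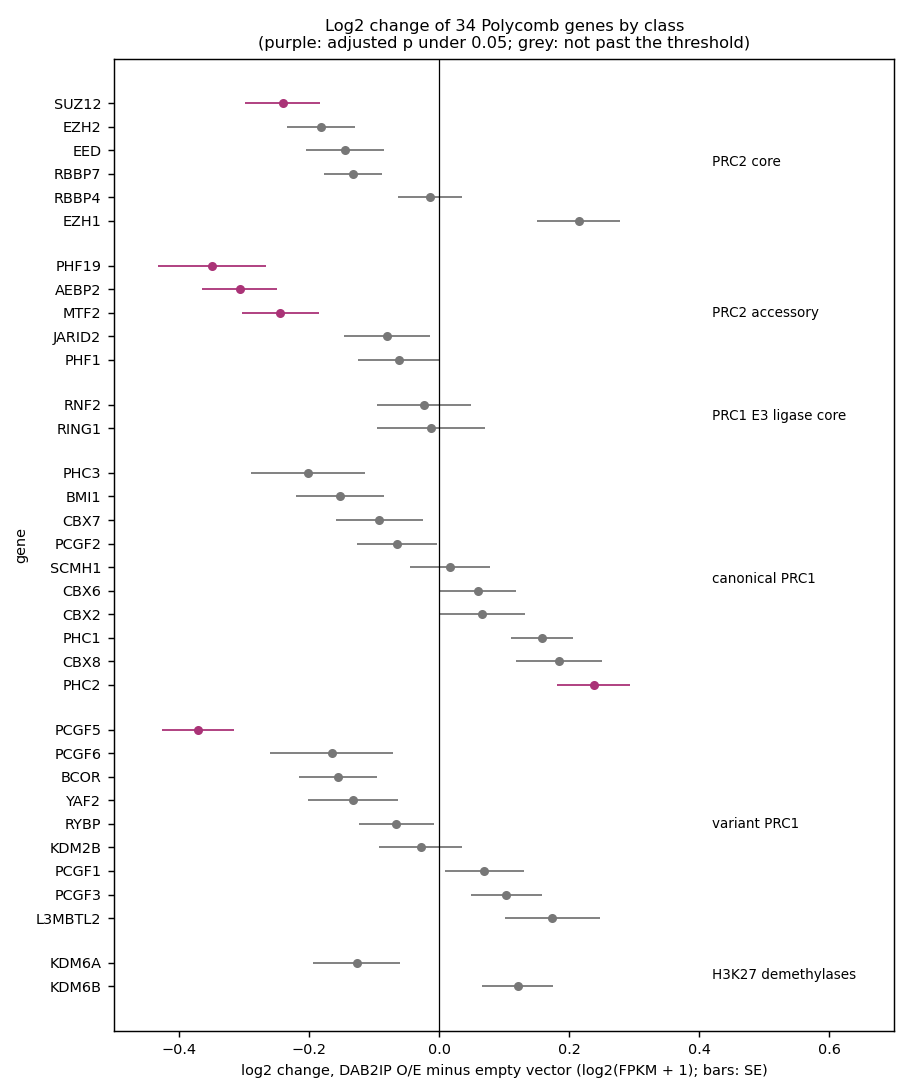
Log2 change of each of the 34 genes, the O/E-labelled libraries minus empty vector on the log2(FPKM + 1) scale, with SE as bars, grouped by complex and coloured by whether the adjusted p was under 0.05. In the PRC2 groups 10 of 11 points lie left of 0 and EZH1 lies right of it, while canonical PRC1 has 4 points left and 6 right.

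In the PRC2 core 5 of 6 subunits were below 0 on the log2 scale, and 1 of them fell past the threshold. SUZ12, the scaffold that holds the complex together (ENSG00000178691.10, plus strand of chromosome 17, 31937018 to 32001045 in GRCh38), was at 15.6, 15.1 and 14.1 FPKM with empty vector and at 11.8, 13.0 and 12.6 FPKM in the O/E-labelled libraries. The groups did not overlap, and the change was −0.24 (SE 0.057) on the log2 scale, with a limma adjusted p of 0.0291. The call was lost without empty vector replicate 1 or 2 or O/E replicate 1 or 3, with limma adjusted p-values of 0.0653 to 0.0944. SUZ12P1, a partial copy of SUZ12 with which reads may be shared, fell as well, from 7.91 ± 0.80 to 5.90 ± 0.33 FPKM (mean ± SD, n = 3 each), with a limma adjusted p of 0.0185. In bulk RNA, fewer cells with a transcript and less transcript per cell cannot be told apart.

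The paralogous catalytic subunits lay on opposite sides of 0. EZH2, the main methyltransferase of dividing cells (ENSG00000106462.10, minus strand of chromosome 7, 148807383 to 148884321 in GRCh38), was at 12.9, 12.9 and 12.1 FPKM with empty vector and at 10.5, 11.0 and 11.5 FPKM in the O/E-labelled libraries. EZH1, the less active paralogue (ENSG00000108799.12, minus strand of chromosome 17, 42700275 to 42745049 in GRCh38), was at 3.11, 2.94 and 2.67 FPKM with empty vector and at 3.67, 3.40 and 3.51 FPKM in the O/E-labelled libraries. Neither pair of groups overlapped, EZH2 being lower and EZH1 higher in every O/E-labelled library. Neither passed the threshold. The log2 changes were −0.18 for EZH2 and 0.21 for EZH1, with 95% intervals of −0.30 to −0.060 and 0.064 to 0.36 and limma adjusted p-values of 0.0507 and 0.0572. Both passed in the authors' deposited table, which gave log2 fold changes of empty vector over DAB2IP O/E of 0.20 for EZH2 and −0.28 for EZH1, with adjusted p-values of 0.0405 and 0.0214. They also passed by limma-voom, run on recovered reads, at adjusted p-values of 0.0305 and 0.0168.

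The ratio of EZH2 to EZH1 combines the values just given, which fix in advance that its groups do not overlap. It was 4.16, 4.37 and 4.52 with empty vector and 2.87, 3.23 and 3.27 in the O/E-labelled libraries. Of the summed FPKM of both genes, EZH1 made up 18.7 ± 0.63% with empty vector and 24.3 ± 1.3% in the O/E-labelled libraries (mean ± SD, n = 3 each). The lowest ratio with empty vector exceeded the highest of the other group. The log2 ratio, taken without the added 1 FPKM, differed by −0.48. A 2-sided exact permutation test returned p = 0.1, which is as low as 3 libraries against 3 can reach. It was 0.2 after Benjamini-Hochberg adjustment over the 10 ratios computed. The p of 0.1 adds nothing to the separate values of EZH2 and EZH1.

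**Figure D2:**
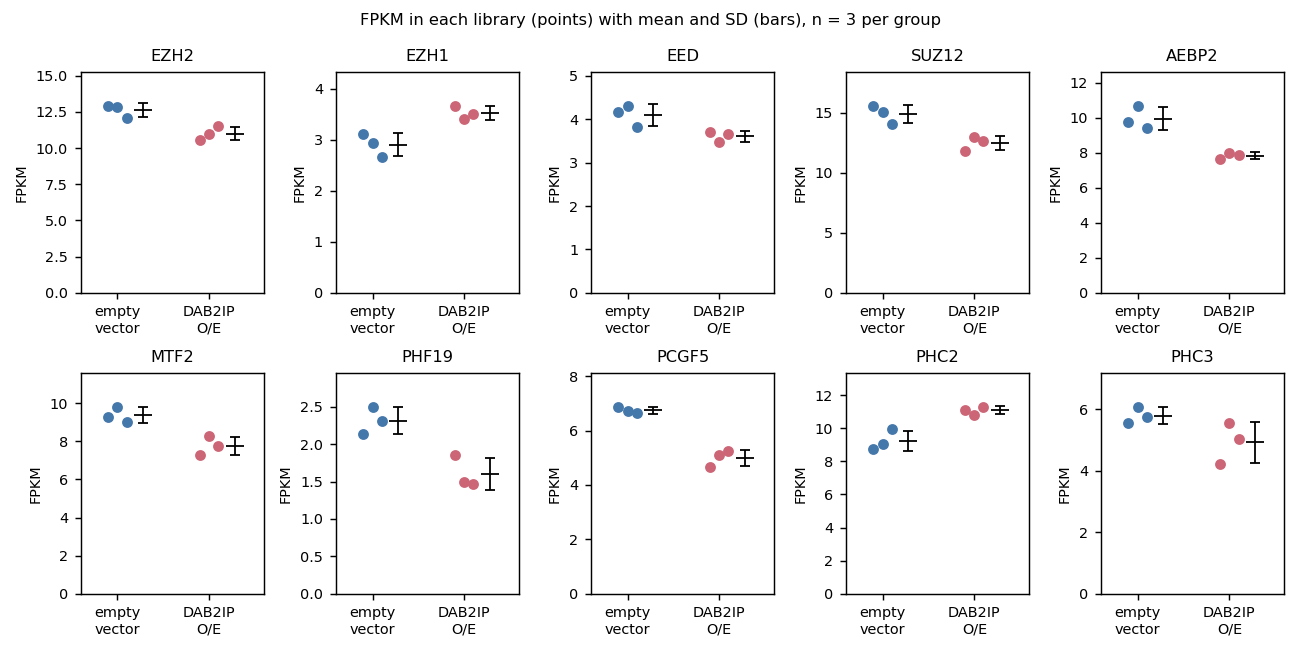
FPKM of 10 Polycomb genes in each library as points, with the mean and SD as bars, for empty vector and DAB2IP O/E (n = 3 per group, axes from 0). EZH1 and PHC2 are higher in each O/E-labelled library, PHC3 overlaps between the groups, and the other 7 genes are lower in each of those libraries.

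The remaining core subunits did not pass. EED, which binds methylated H3K27 and stimulates the enzyme, was at 4.16, 4.32 and 3.82 FPKM with empty vector and at 3.71, 3.47 and 3.66 FPKM in the O/E-labelled libraries, with no overlap. Its log2 change was −0.14, with a limma adjusted p of 0.133. RBBP7, a histone-binding WD40 protein, was at 24.3 ± 0.69 and 22.1 ± 0.54 FPKM (mean ± SD, n = 3 each), also without overlap. Its paralogue RBBP4 was at 23.5 ± 0.36 and 23.3 ± 1.1 FPKM, with groups that overlapped and a 95% interval for the log2 change of −0.13 to 0.10. Both proteins also serve other chromatin complexes. Of the exon bases of RBBP4, 18.0% are shared with SYNC on the opposite strand, and it has 5 similarly named pseudogenes in the table, so its reads may be divided. The ratio of RBBP7 to RBBP4 was 1.04, 1.04 and 1.02 with empty vector and 0.984, 0.930 and 0.928 in the O/E-labelled libraries, without overlap, with an exact permutation p of 0.1 and 0.2 after adjustment.

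The accessory subunits, which steer PRC2 to chromatin, held 3 of the 4 PRC2 genes that fell. All 5 were below 0 on the log2 scale, 3 fell and 2 did not pass, which is 60% lower against 9.17% of all genes tested. AEBP2, a zinc finger protein of the PRC2.2 form (ENSG00000139154.14, plus strand of chromosome 12, 19404045 to 19720801 in GRCh38), was at 9.74, 10.7 and 9.42 FPKM with empty vector and at 7.63, 8.01 and 7.90 FPKM in the O/E-labelled libraries. The groups did not overlap, with a log2 change of −0.31 (SE 0.058) and a limma adjusted p of 0.0137. Without O/E replicate 1 or 3 the limma adjusted p was 0.0511 or 0.0573. JARID2, the other PRC2.2 subunit, recognises ubiquitinated H2A and was at 2.88 ± 0.11 and 2.68 ± 0.22 FPKM (mean ± SD, n = 3 each), with overlapping groups and a 95% interval of −0.24 to 0.075 for the log2 change.

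The PRC2.1 form carries one of the Polycomb-like proteins MTF2, PHF19 and PHF1, of which MTF2 and PHF19 fell. MTF2, which binds unmethylated CpG-rich DNA (ENSG00000143033.17, plus strand of chromosome 1, 93079235 to 93139081 in GRCh38), was at 9.30, 9.83 and 8.997 FPKM with empty vector and at 7.30, 8.27 and 7.73 FPKM in the O/E-labelled libraries. PHF19 (ENSG00000119403.13, minus strand of chromosome 9, 120855652 to 120894896 in GRCh38) was at 2.14, 2.50 and 2.31 FPKM with empty vector and at 1.85, 1.496 and 1.47 FPKM in the O/E-labelled libraries. Neither gene's groups overlapped, and O/E replicate 1 was the lowest for MTF2 but the highest of its group for PHF19. The log2 changes were −0.24 (SE 0.060) and −0.35 (SE 0.082), with limma adjusted p-values of 0.0310 and 0.0279. PHF19 rested on 249 to 448 reads per library, and its mean in the O/E-labelled libraries was 0.693 times that with empty vector, the largest relative fall of the 34 genes. Each call was lost without any of 4 libraries, at limma adjusted p-values of 0.0592 to 0.108 for MTF2 (empty vector replicate 1 or 2, O/E replicate 1 or 3) and 0.0547 to 0.105 for PHF19 (empty vector replicate 2 or 3, O/E replicate 2 or 3). Without a filter on low values the limma adjusted p was 0.0511 for MTF2 and 0.0609 for PHF19. PHF1 was at 5.85 ± 0.40 and 5.55 ± 0.25 FPKM (mean ± SD, n = 3 each) with overlapping groups, and its share of the 5 accessory transcripts was higher without overlap, at 20.3, 17.2 and 20.4% with empty vector and 22.1, 20.7 and 22.7% in the O/E-labelled libraries.

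Promoter sequences are shown for the PRC2 genes that carry an E2F-type motif, because E2F factors regulate EZH2. RefSeq start sites gave windows of 300 bases, from 250 before to 50 after the start, for 32 of the 34 genes in GRCh38.p14. The letters TTTCCCGC and TTTGGCGC, which do not overlap each other, were searched on both strands. In 4 genes a window held one of them, and all 4 were PRC2 genes: EZH2, SUZ12, MTF2 and PHF19. By gene, that is 12.5% of the 32, against 2.75% of all genes with a promoter in the table and 4.72% of those tested here. Genes with several start sites have several windows, and for EZH2 and PHF19 a single window of several held the motif. None of the 21 PRC1 genes had a match in the windows searched, which cover 19 of them. The windows are chr7:148884242-148884541 (minus strand) for EZH2, chr17:31936757-31937056 (plus strand) for SUZ12, chr1:93079033-93079332 (plus strand) for MTF2 and chr9:120877139-120877438 (minus strand) for PHF19, written 5′ to 3′ along the gene with the match in capitals.
EZH2: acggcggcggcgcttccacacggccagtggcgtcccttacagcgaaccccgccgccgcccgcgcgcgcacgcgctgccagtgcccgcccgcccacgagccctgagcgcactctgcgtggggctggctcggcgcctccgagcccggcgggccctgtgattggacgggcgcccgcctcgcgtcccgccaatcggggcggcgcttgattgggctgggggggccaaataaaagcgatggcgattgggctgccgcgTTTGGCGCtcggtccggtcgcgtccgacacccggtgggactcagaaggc
SUZ12: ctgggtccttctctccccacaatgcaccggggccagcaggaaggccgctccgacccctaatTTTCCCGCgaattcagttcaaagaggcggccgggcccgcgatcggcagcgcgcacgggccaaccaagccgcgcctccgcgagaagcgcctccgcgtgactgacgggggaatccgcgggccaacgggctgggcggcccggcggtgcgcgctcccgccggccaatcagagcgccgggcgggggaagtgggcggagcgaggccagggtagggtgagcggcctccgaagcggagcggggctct
MTF2: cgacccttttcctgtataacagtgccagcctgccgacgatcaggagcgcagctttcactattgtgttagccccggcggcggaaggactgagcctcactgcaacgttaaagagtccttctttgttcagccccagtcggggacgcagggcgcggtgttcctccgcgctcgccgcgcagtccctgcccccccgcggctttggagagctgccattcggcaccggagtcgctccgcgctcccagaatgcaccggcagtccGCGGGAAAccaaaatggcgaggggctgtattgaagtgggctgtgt
PHF19: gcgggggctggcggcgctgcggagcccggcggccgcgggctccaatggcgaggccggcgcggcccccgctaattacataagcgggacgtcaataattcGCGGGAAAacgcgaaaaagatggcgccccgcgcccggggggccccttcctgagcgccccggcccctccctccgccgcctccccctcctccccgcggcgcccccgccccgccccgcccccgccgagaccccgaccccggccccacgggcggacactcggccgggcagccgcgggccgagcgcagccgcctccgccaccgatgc
Counted from the start site, the first base of the match lies at 1 in EZH2, 5 in MTF2, −189 in SUZ12 and −152 in PHF19, and in MTF2 and PHF19 the motif reads on the opposite strand. A match is a description of letters and does not show binding. Of the other motifs searched on both strands, CCAAT was in 15 of the 32 genes and in 34.6% of 35116 promoters. TTTGAA was in 4 genes (SUZ12, PHC1, PCGF5 and YAF2) and 15.2% of promoters, and the NRF1-type motif in PHC3 and 1.24% of promoters. The 32 are counted by gene, over all windows of a gene, and the percentages by single promoter, so these are unlike measures. Of the 14761 genes tested, 8919 had a promoter here, and 421 of these had a match in any window. Of the 421, 64 fell and 16 rose, 15.2% lower against 9.53% of the 8498 genes with a promoter and no match. The median log2 change was −0.034 with a match and −0.0018 without. Among PRC2 genes, AEBP2 fell and had no match, while EZH2 had one and did not pass. The part of these motifs in the PRC2 values was not tested.

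Proliferation genes were lower in the same libraries. Of 16 E2F and proliferation genes, 13 fell and 3 did not pass, where 9.17% of all genes tested fell, with a median log2 change of −0.27, over 653 to 664 summed FPKM with empty vector and 531 to 552 in the O/E-labelled libraries. MKI67, which encodes the Ki-67 protein, went from 23.5 ± 1.5 to 16.3 ± 0.26 FPKM, TOP2A, a topoisomerase, from 76.2 ± 3.8 to 57.7 ± 2.9, CCNA2, a cyclin, from 52.7 ± 1.2 to 42.0 ± 1.9, and E2F8, an E2F factor, from 11.1 ± 0.42 to 8.34 ± 0.23 (mean ± SD, n = 3 each). The part of proliferation in the PRC2 values was not tested.

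In the enzymatic core of PRC1 neither gene passed, be it by limma with or without adjustment, by limma-voom or in the authors' deposited table. RING1 and RNF2, the alternative ubiquitin ligases, had 13.9, 14.4 and 13.2 and 7.37, 8.18 and 8.12 FPKM with empty vector. In the O/E-labelled libraries they had 15.0, 11.9 and 14.3 and 7.02, 8.39 and 7.87 FPKM, and the values of both groups were interleaved. The 95% intervals of their log2 changes were −0.21 to 0.18 and −0.19 to 0.15. A fall as large as that of PHF19, the largest relative fall of the 34, lay outside both intervals. Falls of the size of EZH2 (−0.18) or of the PRC2 median (−0.14) lay inside both. The ratio of RNF2 to RING1 averaged 0.572 ± 0.043 and 0.574 ± 0.12 (mean ± SD, n = 3 each), with a 2-sided exact permutation p of 1.

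In canonical PRC1, 1 of 10 genes rose and 9 did not pass, and the genes spread to both sides of 0. PHC2, a Polyhomeotic protein that polymerises PRC1 through its SAM domain (ENSG00000134686.18, minus strand of chromosome 1, 33323623 to 33431052 in GRCh38), was at 8.76, 9.07 and 9.93 FPKM with empty vector and at 11.1, 10.8 and 11.3 FPKM in the O/E-labelled libraries. It was higher in each of the latter libraries, with a log2 change of 0.24 (SE 0.056) and a limma adjusted p of 0.0280. The call was lost without any of 5 libraries, all but empty vector replicate 3, at limma adjusted p-values of 0.0538 to 0.110. Its paralogue PHC1 was at 4.67, 4.55 and 4.66 FPKM with empty vector and at 5.36, 5.17 and 5.32 FPKM in the O/E-labelled libraries. These groups did not overlap either, but the limma adjusted p was 0.0587, 18.1% of the exon bases of PHC1 are shared with M6PR on the opposite strand, and PHC1P1 is a copy with a mean of 2.88 FPKM with empty vector.

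PHC3, the last Polyhomeotic gene, lay on the other side of 0 and did not pass. It was at 5.54, 6.08 and 5.75 FPKM with empty vector and at 4.22, 5.54 and 5.02 FPKM in the O/E-labelled libraries, with a log2 change of −0.20 and a limma adjusted p of 0.146. The second O/E-labelled library reached the level of the first empty vector library, so the groups overlapped narrowly. In the authors' deposited table PHC3 passed, with a log2 fold change of empty vector over DAB2IP O/E of 0.23 and an adjusted p of 0.0428. Against PHC2 the groups separated: the ratio of PHC3 to PHC2 was 0.632, 0.671 and 0.580 with empty vector and 0.380, 0.512 and 0.443 in the O/E-labelled libraries. The log2 ratio differed by −0.50, the largest difference of the 10 pairs, with an exact permutation p of 0.1 and 0.2 after adjustment. PHC2 made up 47.0 ± 1.6% of the summed PHC level with empty vector and 52.1 ± 1.7% in the O/E-labelled libraries, and PHC3 29.5 ± 1.3% and 23.1 ± 2.7% (mean ± SD, n = 3 each).

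The CBX proteins, chromodomain readers of methylated H3K27, had no member that passed. CBX6 made up 50.3 ± 1.2% and 49.97 ± 0.28% of the summed level of CBX2, CBX6, CBX7 and CBX8, and CBX2 26.2 ± 1.1% and 26.3 ± 0.36% (mean ± SD, n = 3 each), both with overlapping groups. The share of CBX7 was 10.7 ± 0.37% and 9.20 ± 0.17% and that of CBX8 12.8 ± 0.84% and 14.5 ± 0.36%, without overlap for either. CBX8 was at 2.00, 2.32 and 2.16 FPKM with empty vector and at 2.71, 2.45 and 2.60 FPKM in the O/E-labelled libraries, without overlap, and its limma adjusted p was 0.0940. CBX8 and CBX2 both lie in the stretch of chromosome 17 from 70 to 80 Mb, in which the 99 genes tested beside CBX8 had a median log2 change of 0.15. The log2 change of CBX2 was 0.066, and the ratio of CBX8 to CBX2 was 0.471, 0.526 and 0.466 against 0.547, 0.576 and 0.536, without overlap (exact permutation p of 0.1, adjusted 0.2). CBX7 had the lowest level of the 4 at 1.81 ± 0.052 and 1.64 ± 0.13 FPKM (mean ± SD, n = 3 each), and every O/E-labelled library lay below every empty vector library, with a limma adjusted p of 0.370. The log2 change of CBX6 was 0.060.

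The PCGF subunits that define canonical PRC1 did not pass. BMI1, also called PCGF4, was at 13.0, 12.5 and 11.9 FPKM with empty vector and at 10.3, 12.1 and 10.9 FPKM in the O/E-labelled libraries. PCGF2, or MEL18, was at 9.33 ± 0.55 and 8.87 ± 0.50 FPKM (mean ± SD, n = 3 each). The groups overlapped for both genes, and the limma adjusted p-values were 0.154 and 0.486. The readthrough gene COMMD3-BMI1 covers 23.3% of the exon bases of BMI1 and was at 20.9 ± 1.7 and 17.7 ± 0.62 FPKM, so the level of BMI1 is uncertain. CISD3, on the opposite strand, covers 32.7% of those of PCGF2. SCMH1, a substoichiometric partner of canonical PRC1, was at 4.95 ± 0.21 and 5.02 ± 0.34 FPKM, with a 95% interval of −0.13 to 0.16.

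Variant PRC1 held the Polycomb gene with the lowest adjusted p, PCGF5, while its other 8 genes did not pass. PCGF5 marks a variant complex that deposits much of the ubiquitin on H2A in mouse embryonic stem cells (ENSG00000180628.14, plus strand of chromosome 10, 91163012 to 91284331 in GRCh38). It was at 6.88, 6.71 and 6.63 FPKM with empty vector and at 4.66, 5.08 and 5.23 FPKM in the O/E-labelled libraries, from 1094 to 1561 reads per library. The groups did not overlap, with a log2 change of −0.37 (SE 0.055) and a limma adjusted p of 0.00615. Among the 6 genes that passed, PCGF5 alone kept its call when each library was left out in turn, with limma adjusted p-values of 0.0146 to 0.0282. It also had the smallest adjusted p of the 34 in the authors' deposited table, 3.49e-07, with a log2 fold change of empty vector over DAB2IP O/E of 0.43. The 67 other genes tested from 90 to 100 Mb of chromosome 10 had a median log2 change of −0.078.

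PCGF3, the closest paralogue of PCGF5, was at 4.44, 4.69 and 4.49 FPKM with empty vector and at 5.203, 4.93 and 4.72 FPKM in the O/E-labelled libraries. It was thus higher without overlap where PCGF5 was lower, but did not pass, with a log2 change of 0.10 and a limma adjusted p of 0.223. The 61 genes tested beside it in the first 10 Mb of chromosome 4 had a median log2 change of 0.15. As shares of the summed level of the 6 PCGF genes, PCGF5 made up 14.6, 14.3 and 14.6% with empty vector and 11.3, 11.6 and 12.2% in the O/E-labelled libraries. PCGF3 made up 9.44, 9.97 and 9.88% and 12.6, 11.3 and 11.1%. BMI1 had the largest share of the family in every library, at 26.8 ± 0.78% and 26.1 ± 1.4% (mean ± SD, n = 3 each), and the ratio of BMI1 to PCGF2 had overlapping groups.

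**Figure D3:**
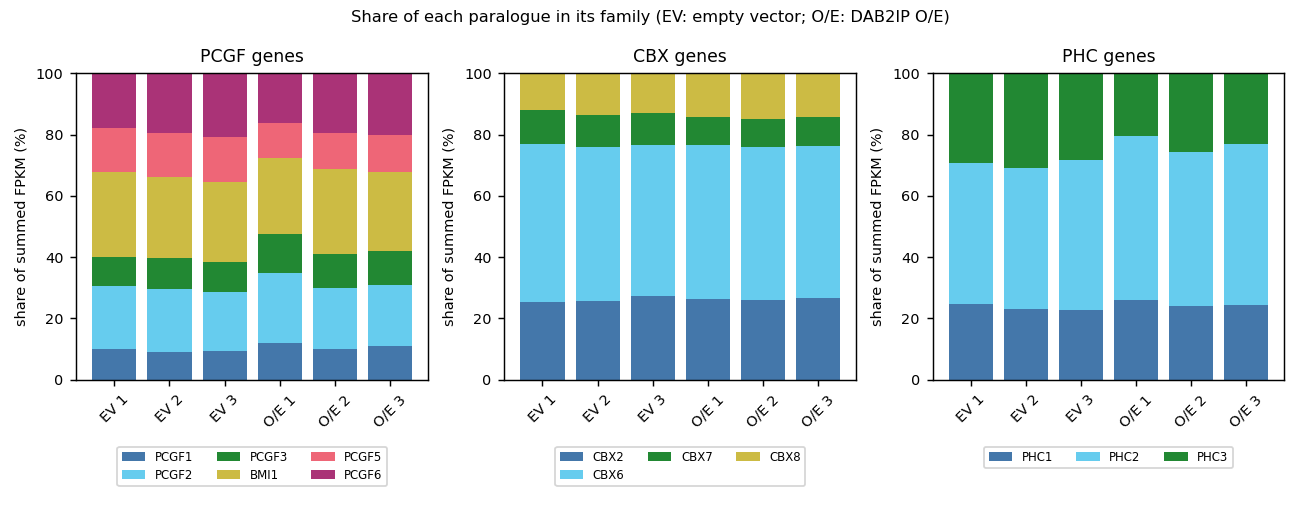
Share of each gene in the summed FPKM of its family (percent), as stacked bars for the 3 empty vector and the 3 DAB2IP O/E libraries, for 6 PCGF, 4 CBX and 3 PHC genes. The PCGF5 band is thinner, and the PHC2 band thicker, in every O/E-labelled library, and the CBX2 and CBX6 bands overlap between the groups.

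The other variant subunits did not pass. PCGF1, which joins KDM2B and BCOR in one variant complex, was at 4.44 ± 0.27 and 4.70 ± 0.23 FPKM (mean ± SD, n = 3 each) with overlapping groups. KDM2B, which brings that complex to unmethylated CpG islands, was at 2.24 ± 0.094 and 2.18 ± 0.14 FPKM, also with overlap. BCOR, its corepressor subunit, was at 2.23, 2.202 and 2.16 FPKM with empty vector and at 1.85, 1.97 and 1.79 FPKM in the O/E-labelled libraries. For BCOR the groups did not overlap, with a log2 change of −0.16 and a limma adjusted p of 0.109. PCGF6, found with L3MBTL2 in another variant complex, was at 9.01 ± 0.59 and 7.96 ± 1.1 FPKM with overlap. L3MBTL2 itself was at 2.66, 3.19 and 3.23 FPKM with empty vector and at 3.51, 3.71 and 3.39 FPKM in the O/E-labelled libraries, higher without overlap, with a limma adjusted p of 0.139. Antisense genes share 14.5% of the exon bases of L3MBTL2, 10.5% of those of PHC3 and 17.9% of those of CBX7, and since the strand setting of the counts is not stated their reads cannot be told apart.

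RYBP and YAF2, alternative subunits that distinguish variant from canonical PRC1, did not pass. RYBP was at 8.97 ± 0.20 and 8.54 ± 0.57 FPKM and YAF2 at 1.81 ± 0.10 and 1.56 ± 0.13 FPKM (mean ± SD, n = 3 each), with limma adjusted p-values of 0.453 and 0.216. The groups overlapped for RYBP and not for YAF2, which was lower in every O/E-labelled library. Their ratio had overlapping groups, and RYBP exceeded YAF2 in every library.

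The H3K27 demethylases KDM6A, or UTX, and KDM6B, or JMJD3, lay on opposite sides of 0, and neither passed by limma (also without adjustment), by limma-voom or in the authors' deposited table. KDM6A was at 4.71, 4.87 and 4.74 FPKM with empty vector and at 3.84, 4.49 and 4.55 FPKM in the O/E-labelled libraries. KDM6B, the paralogue known to be induced by stress and inflammatory signals, was at 2.66, 2.59 and 2.74 FPKM with empty vector and at 2.97, 2.90 and 3.07 FPKM in the O/E-labelled libraries. Neither pair of groups overlapped, KDM6A being lower and KDM6B higher, with limma adjusted p-values of 0.220 and 0.163. The ratio of KDM6B to KDM6A was 0.564, 0.532 and 0.577 with empty vector and 0.773, 0.646 and 0.675 in the O/E-labelled libraries. The exact permutation p of this ratio was 0.1, and 0.2 after adjustment. The p of 0.1 was fixed by the values of KDM6A and KDM6B, whose groups already lay apart in opposite directions.

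**Figure D4:**
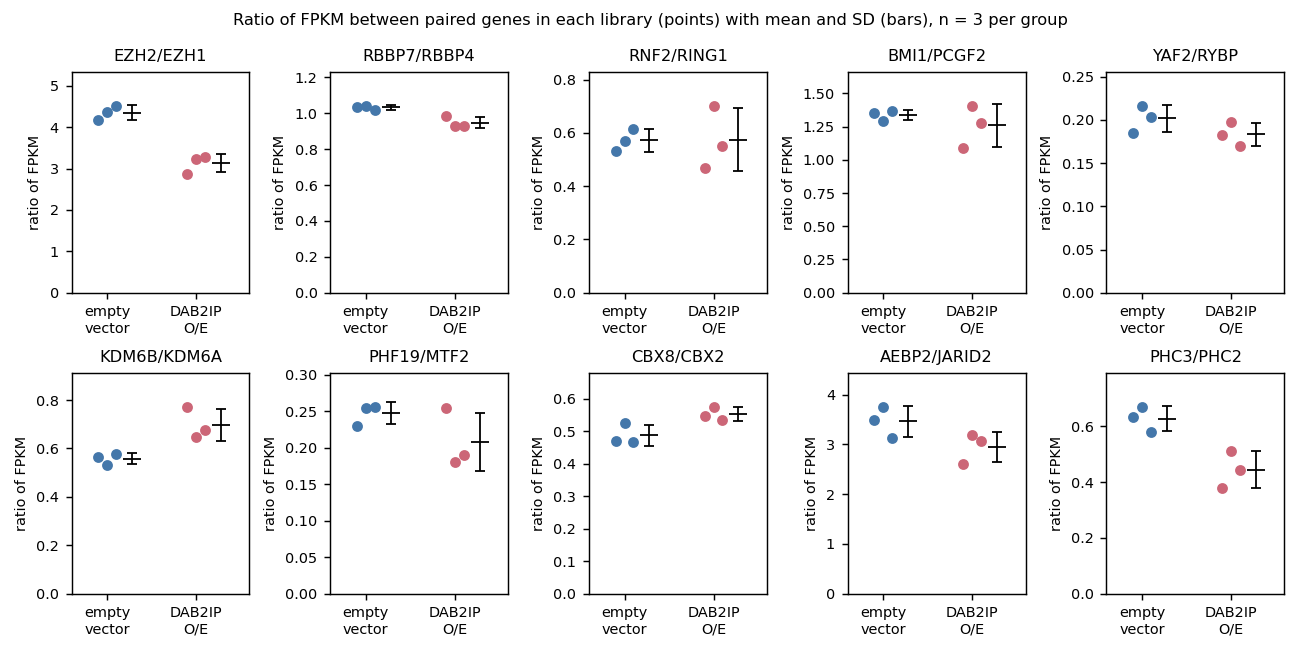
Ratio of FPKM between 10 pairs of related genes in each library as points, with the mean and SD as bars, for empty vector and DAB2IP O/E (n = 3 per group, axes from 0). The groups do not overlap for EZH2/EZH1, RBBP7/RBBP4 and PHC3/PHC2, which are lower, and for KDM6B/KDM6A and CBX8/CBX2, which are higher, in the O/E-labelled libraries.

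Of the 10 ratios, 5 had groups that did not overlap, 3 lower and 2 higher in the O/E-labelled libraries. For EZH2/EZH1 and KDM6B/KDM6A this was fixed by the values of the single genes. Among single genes tested, 40.4% had groups that did not overlap, and no such share is given for ratios of other genes. The remaining pairs, RNF2/RING1, BMI1/PCGF2, YAF2/RYBP, PHF19/MTF2 and AEBP2/JARID2, overlapped, with exact permutation p-values of 0.2 to 1. The AEBP2 to JARID2 ratio was 3.49, 3.76 and 3.13 with empty vector and 2.60, 3.19 and 3.06 in the O/E-labelled libraries. The PHF19 to MTF2 ratio in the first O/E-labelled library, 0.254, lay within the range of the empty vector libraries.

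Set side by side, PRC2 held 4 of the 5 Polycomb genes that fell. Of 11 PRC2 subunits, 4 fell and 7 did not pass, which is 36.4% lower against 9.17% of all genes tested. Of 21 PRC1 subunits, 1 fell, 1 rose and 19 did not pass, 4.76% lower and 4.76% higher. The median log2 change was −0.14 for PRC2, 0.038 for the 10 canonical PRC1 genes, −0.066 for the 9 variant PRC1 genes and −0.00042 for all genes tested. In PRC2, 10 of 11 subunits were below 0, and in PRC1 12 of 21. The groups did not overlap for 7 PRC2 subunits on the lower side and for 1, EZH1, on the higher side, 63.6% and 9.09% against 20.9% and 19.5% of all genes tested. Summed over subunits, PRC2 stood at 114, 115 and 109 FPKM with empty vector and at 98.9, 103 and 102 FPKM in the O/E-labelled libraries. PRC1 stood at 127, 130 and 127 and 125, 125 and 127 FPKM, with groups that overlapped. These are descriptions of the lists, and no test of the difference between the complexes was made. The 4 PRC2 calls depended on the libraries: without the third O/E-labelled library none of them passed (0 of 11 subunits by limma, with 5 lower and 1 higher at an unadjusted p under 0.05), where 6.48% of all genes did. For the unadjusted counts no share of all genes is given. In all 6 libraries limma-voom called 5 PRC2 subunits lower and 1 higher, as did the authors' deposited table. Of the 21 PRC1 subunits, limma-voom called 3 lower and 2 higher. The authors' comparison called 2 of the PRC1 subunits lower and 1 higher. Of all genes, 25.1% passed by limma-voom and 19.0% in the authors' comparison. By limma, 4 PRC2 subunits passed without the third empty vector library, with EZH2 in (limma adjusted p of 0.0492) and PHF19 out. The number was 3 without the second O/E-labelled library and 2 without the first empty vector library. It was 1 without the second empty vector or first O/E-labelled library. In that order, 18.5%, 13.4%, 13.8%, 8.2% and 8.74% of all genes passed. When no filter on low values was applied, 2 PRC2 subunits passed (8.71% of all genes).

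Related chromatin genes were read against the 18.5% of all genes tested that passed. Of 18 further PRC1-associated genes tested, 1 fell and 17 did not pass by limma. At an unadjusted p under 0.05, 7 of these 18 were lower and 2 higher. For the unadjusted counts in this paragraph no share of all genes is given, so they cannot be compared with all genes. Limma-voom called 5 of them lower and 0 higher, as did the authors' deposited table. Over all genes, 25.1% passed by limma-voom and 19.0% in the authors' table. Of 3 further PRC2-associated genes, LCOR, LCORL and EPOP, 0 passed by limma. Of these 3, 1 was lower at an unadjusted p under 0.05, 1 by limma-voom and 1 in the authors' table. The PRC1-associated gene that fell was SCML2, a Polycomb protein, from 3.27 ± 0.29 to 2.54 ± 0.16 FPKM (mean ± SD, n = 3 each). USP7, a deubiquitinase, and HDAC1, a histone deacetylase, had lower means and DCAF7, a WD40 protein, a higher one, with limma adjusted p-values of 0.0577, 0.0579 and 0.0739. Among 11 genes linked to removal of ubiquitin from H2A, 1 rose and 2 fell. Limma-voom called 1 of these 11 higher and 4 lower, as did the authors' deposited table. FOXK2, a forkhead factor that binds the deubiquitinase BAP1, rose from 5.46 ± 0.31 to 6.69 ± 0.44 FPKM, while ASXL2, a cofactor of BAP1, fell from 11.3 ± 0.40 to 9.42 ± 0.82 FPKM. USP16, another H2A deubiquitinase, fell from 20.9 ± 0.49 to 17.5 ± 1.1 FPKM, and OGT, a sugar transferase, was at 29.9 ± 1.3 and 26.6 ± 0.45 FPKM without passing. Among 15 trithorax and acetylation genes, which oppose Polycomb and include KDM6A, 2 fell and 13 did not pass. Limma-voom called 4 of these 15 lower and 0 higher, as did the authors' deposited table. The 2 that fell by limma were the H3K4 methyltransferases SETD1A and KMT2A, with log2 changes of −0.25 and −0.24 and limma adjusted p-values of 0.0346 and 0.0384. MEN1 and KMT2C, which belong to such methyltransferase complexes, did not pass, at 0.16 and −0.15.

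Genes commonly cited as repressed by PRC2 were mostly low or did not pass. Of 22 listed, 17 were in the table and 9 were tested, of which 1 fell and 8 did not pass by limma, with a median log2 change of 0.018. Limma-voom called 2 of them higher and 2 lower, as did the authors' deposited table. Over all genes, the shares that passed were 18.5% by limma, 25.1% by limma-voom and 19.0% in the authors' table. The one that fell, HOXA9, a homeobox factor, went from 10.0 ± 1.0 to 6.28 ± 0.23 FPKM (mean ± SD, n = 3 each), with a limma adjusted p of 0.00338. KRT17, a keratin, and CDKN1C, a cyclin-dependent kinase inhibitor, were at 0.795 ± 0.16 and 1.44 ± 0.33 FPKM with empty vector and at 1.51 ± 0.46 and 2.11 ± 0.18 FPKM in the O/E-labelled libraries. Their limma adjusted p-values were 0.0517 and 0.0595. SLIT2, a guidance factor, was at 2.37 ± 0.055 and 1.96 ± 0.22 FPKM and did not pass. Histone methylation itself was not measured.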

How the data were processed

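RNA-seq of 6 OVCAR3 libraries was analysed from tables as deposited. The authors deposited FPKM per gene and library. Their comparison table holds, per the file headers, a mean normalised count (a signal over all libraries), log2 fold changes and their errors, a score (the test's statistic) and p-values. Set against the FPKM, the deposited fold changes put empty vector over DAB2IP O/E. DESeq2 1.12.4 with R 3.3.1, the aligners TopHat2 2.1.1 and Bowtie, the trimmer Trimmomatic 0.32 and the builds hg19 and GRCh38.p5 appear in a list of names only, per the submitters' processing notes. How reads were counted, with which annotation, strand setting and filters, is not given in the sources used here. Identifiers matched GENCODE release 29 for 25344 genes, all with equal coordinates, so positions are in GRCh38. The length behind each FPKM matched the union of a gene's annotated exons within 1% for 100% of 13701 genes. Genes with long, rarely used exons therefore read low in comparisons of level between genes.

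Whole reads were recovered by scaling FPKM with the deposited mean normalised count; 100% of values lay within 0.001 of a whole number. Libraries of a group differed beyond sampling noise (chi-square per degree of freedom of 3.52 to 12.7), so none were duplicates, and the labels name no batch. Groups were tested with limma 3.58.1 under R 4.3.3 (trend, 2-sided) on log2(FPKM + 1), kept to genes whose mean reached 1 FPKM, adjusted by Benjamini-Hochberg over all 14761, threshold 0.05. Ratios were compared by exact permutation tests. The fit was checked on simulated data. Every member is named; of each list of related genes, up to 4 tested ones are named, ranked by adjusted p. The members, lists and motifs were chosen with earlier results of these data known. Alternatives were pseudocounts of 0.1 and 0.5, no filter or 5 FPKM, upper-quartile and median scaling, a fit with no trend, a robust trend, limma-voom, a replicate block and leaving out each library.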

Additional observations from a re-analysis of the deposited data

How the results depend on the processing

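PCGF5 passed in all 16 alternatives, and the directions of the 6 genes that passed held wherever they were tested (PHF19 was below the 5 FPKM filter and not tested there). Limma-voom on recovered reads called 11 of 34 members (25.1% of all genes), adding EZH1, EZH2, PHC1, PHC3 and BCOR. Leaving out 1 library gave 956 to 2731 genes in all, 1 to 6 members and 0 to 4 PRC2 subunits. Without a filter 2 PRC2 subunits passed. The median log2 change of PRC2 was −0.18 with a pseudocount of 0.1 and −0.17 with limma-voom, and −0.18 to −0.12 with a library left out. For canonical PRC1 it was 0.012 with equal library medians and 0.0084 to 0.052 with a library left out, and for variant PRC1 −0.11 to −0.047. The log2 change of SCMH1 was −0.0084 with equal medians. With a library left out, values that crossed 0 ranged from −0.046 to 0.022 for RBBP4, −0.075 to 0.078 for RING1, −0.074 to 0.039 for RNF2, −0.011 to 0.064 for SCMH1 and −0.051 to 0.0074 for KDM2B. Log2 ratio differences ranged from −0.17 to 0.12 for RNF2/RING1 and −0.18 to 0.0069 for BMI1/PCGF2. The cause of these differences was not tested. Same-numbered libraries had deviations correlated at 0.120, 0.0992 and 0.0576, each library correlating best with its own number, a hint from the data and not the design. With a replicate block 2393 genes, 4 members and 2 PRC2 subunits passed, SUZ12 and PHF19 losing their calls (limma adjusted p of 0.0547 and 0.0596). The median SE of a log2 change over all genes was 0.070, which limits what could be detected.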
